A study of Mus musculus with 6 samples.

Results

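The insulin-like growth factor (IGF) system was described here through 10 genes: the ligands Igf1 and Igf2, the receptors Igf1r and Igf2r, and the binding proteins Igfbp2, Igfbp3, Igfbp4, Igfbp5, Igfbp6 and Igfbp7. They were taken by symbol from a table of 19241 genes, each symbol matched 1 row, and all 10 passed the filter on low values (0.5 FPKM or more on average). FPKM, fragments per kilobase of transcript corrected for library size, is a level per length that can be compared between genes. The tissue was total interscapular brown adipose tissue from newborn mice, in 3 libraries of animals with the genotype Fstl1-floxed, called WT, and 3 of animals with the genotype Myf5-Fstl1 KO, called KO. Fstl1, which encodes a secreted glycoprotein, is in KO lost from the Myf5 lineage, the precursors of skeletal muscle and of much of this brown fat, so other cells of the depot may keep the gene. Agents, exact age and the number of animals behind a library were not given in the sources used here, and the p-values below measure the spread between these libraries.

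IGF1 and IGF2 are small secreted hormones related to insulin that drive growth before and after birth. Both signal through the tyrosine kinase receptor encoded by Igf1r, while the receptor encoded by Igf2r, which also carries lysosomal enzymes, takes up IGF2 and delivers it for degradation. The binding proteins hold IGFs in tissue and blood and can limit or prolong their action. Igf2 is an imprinted gene read from the paternal copy, and in the mouse its expression is high in the fetus and newborn and falls after weaning.

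The targeted gene Fstl1 measured 55.52, 130.04 and 54.37 FPKM in the WT libraries against 7.93, 13.08 and 8.77 FPKM in the KO libraries, replicates 1 to 3 in order (log2 fold change −2.79, SE 0.33, limma adjusted p 0.00979, or 0.0606 without the filter on low values). Steps between low values put the depth at an estimated 13850000 to 15150000 reads per library. All 8 brown adipocyte markers were present in every library, but they did not move together: Elovl3 (17.6% of the WT mean, limma adjusted p 0.0151) and Plin1 (37.9%, adjusted p 0.0267) were called lower in KO, and the other 6 were not called. Of those 6, Ucp1 was at 48.9% of the WT mean without overlap (limma adjusted p 0.0804), Fabp4 was at 95.1%, and Cidea, Adipoq, Pparg and Ppargc1a lay at 108% to 147% with overlapping groups. Xist was at 44.82 to 85.51 FPKM in WT and at most 0.92 FPKM in KO, and the Y-linked gene Ddx3y was at most 0.23 FPKM in WT and at least 59.54 FPKM in KO. Sex and genotype therefore coincided in these libraries and cannot be told apart in any difference below. Summed skeletal muscle markers were at 296 FPKM in KO replicate 1 against 1181 to 1734 FPKM in the other libraries, and summed erythroid markers were at 11785 FPKM in WT replicate 3 against 2553 to 4170 FPKM in the others. In bulk tissue, fewer cells of a type and less RNA per cell cannot be told apart.

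One member differed between the groups past the threshold. Igfbp2, a binding protein made by liver and by fat precursors among other cells, was lower in KO, at 24.7% of the WT mean. Its KO mean was below the filter, so it was tested through its WT values. The call was lost with the replicate number as a block, and when any library other than WT replicate 1 was left out. The other 9 members did not pass the threshold (adjusted p 0.05 over all genes tested), so 1 of 10 members was called (1 also at an unadjusted p under 0.05, against 19.2% of all genes), where 2.21% of the 13331 tested genes were called in either direction and 1.01% were called lower. The median log2 fold change was 0.05 over the 10 members and 0.01 over all genes tested. The median absolute log2 fold change was 0.16 over the members and 0.20 over all genes. In the plot of differences, the interval of Igfbp2 alone lies clear of 0.

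**Figure D1:**
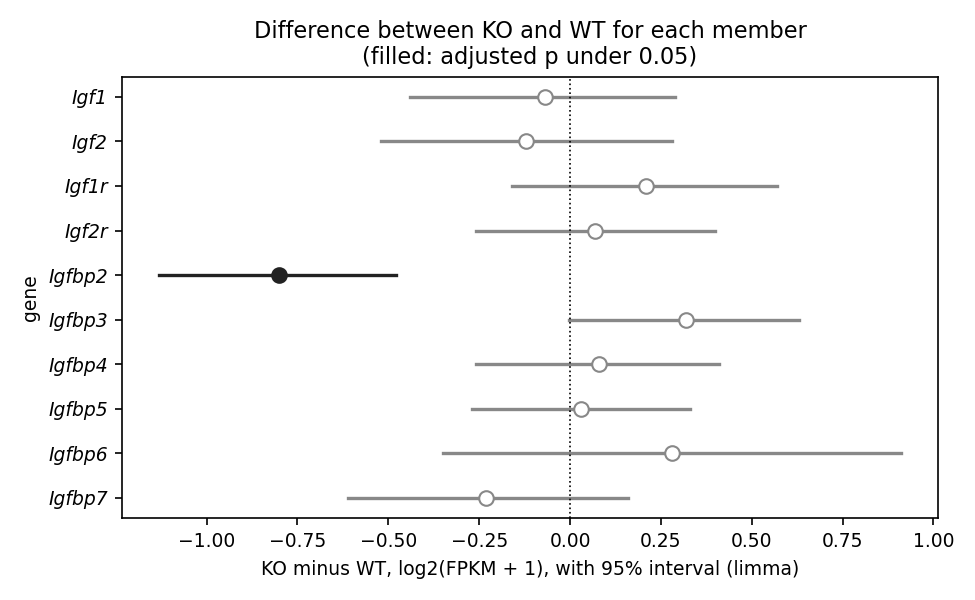
Difference between KO and WT for each of the 10 members, on the log2(FPKM + 1) scale, with 95% intervals from limma that are not adjusted for the number of genes; filled points passed an adjusted p of 0.05. Igfbp2 lies at −0.80 and the other 9 points between −0.23 and 0.32.

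Among the ligands, Igf2 was the most abundant member of the system. Igf2 measured 417.48, 512.7 and 516.29 FPKM in the WT libraries against 379.02, 549.4 and 414.97 FPKM in the KO libraries, in replicate order. The highest and the lowest library were both KO, so the groups overlapped throughout the range. The means were 482 ± 56.0 FPKM in WT and 448 ± 89.8 FPKM in KO (SD, n = 3 each), with a log2 fold change of −0.12 and a 95% interval of −0.52 to 0.28 (limma, adjusted p 0.765). That interval corresponds to a KO level of 0.70 to 1.21 times the WT level.

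Igf1, which in the body comes largely from liver under growth hormone and is also made locally in fat and muscle, was much lower than Igf2. It measured 18.25, 24.42 and 20.5 FPKM in the WT libraries against 21.73, 20.88 and 17.25 FPKM in the KO libraries. The groups overlapped, with a log2 fold change of −0.07 and an interval of −0.44 to 0.29 (limma, adjusted p 0.856). Per kilobase, Igf2 stood at 17.4 (KO replicate 1) to 26.3 (KO replicate 2) times the level of Igf1 in the same library, and the WT ratios of 21.0 to 25.2 lay inside that range. Both ligand genes have 5 transcripts in the table, of differing length, so this ratio also depends on how fragments were shared among transcripts. The liver markers Alb, Afp, Apoa1, Ttr and Serpina1a were each at 0.33 FPKM or less in every library, below the filter.

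Igf2 (chromosome 7, 142650768 to 142666816, RefSeq GRCm38.p6) overlaps the noncoding gene Igf2os over 7.14 kb and lies 72.62 kb from H19, the maternally expressed imprinted RNA of the same domain. Whether the counting used strand is not given in the sources used here, so reads of Igf2 and Igf2os may be mixed. Igf2os was listed at 0.243% to 0.326% of the Igf2 level. H19 measured 1163.49, 1555.9 and 1280.06 FPKM in the WT libraries against 845.96, 1369.02 and 1183.78 FPKM in the KO libraries. KO replicate 1 was the lowest library for H19, as it was for Igf2, and the H19 groups overlapped (limma, log2 fold change −0.25, adjusted p 0.536).

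**Figure D2:**
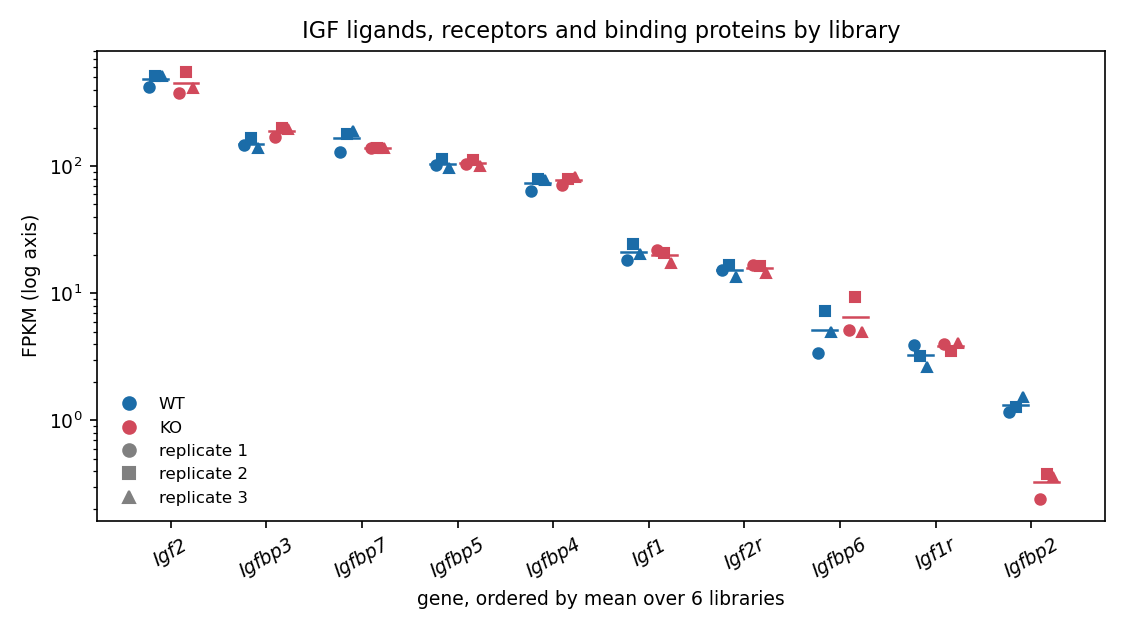
FPKM on a log axis for the 10 members in each library, ordered by mean, with WT in blue, KO in red, marker shape for the replicate number and a short line for each group mean. Levels run from 465 FPKM for Igf2 to 0.823 FPKM for Igfbp2, and Igfbp2 and Igfbp3 are the members whose groups do not overlap.

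Both receptor genes were far below the ligand Igf2. Igf1r measured 3.94, 3.22 and 2.62 FPKM in the WT libraries against 4.03, 3.52 and 4.09 FPKM in the KO libraries. KO libraries tended towards the upper end and WT replicate 3 was lowest, but WT replicate 1 lay above KO replicate 2 (limma, log2 fold change 0.21, interval −0.16 to 0.57, adjusted p 0.527). Because the Igf1r transcript is 11409 nt long, these low FPKM values still rest on an estimated 439 to 697 reads per library.

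Igf2r measured 15.22, 16.81 and 13.43 FPKM in the WT libraries against 16.67, 16.55 and 14.41 FPKM in the KO libraries. Replicate 3 was the lowest library of either group, and the groups overlapped (limma, log2 fold change 0.07, interval −0.26 to 0.40, adjusted p 0.851). Igf2r stood at 3.52 to 5.22 times Igf1r per kilobase in the same library. Igf2r (chromosome 17, 12682406 to 12769706) overlaps the antisense noncoding gene Airn over 28.4 kb, and Airn was listed at 50.8% to 69.1% of the Igf2r level, so without strand the value of either gene may hold reads of the other. Airn itself lay at 8.97 ± 1.73 FPKM in WT and 9.73 ± 2.15 FPKM in KO (SD, n = 3 each), and its groups overlapped.

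The binding proteins spanned a wide range of levels. Their summed FPKM was 443 to 547 in WT and 489 to 539 in KO, of the same order as Igf2. Igfbp3, Igfbp7, Igfbp5 and Igfbp4 made up nearly all of it. In order of mean level over the 6 libraries, Igfbp3 (169 FPKM) and Igfbp7 (153 FPKM) came first, and their order held in 4 of 6 libraries. Igfbp5 (104.7 FPKM) was above Igfbp4 (75.6 FPKM) in 6 of 6 libraries. Igfbp6 (5.86 FPKM) was above Igf1r (3.57 FPKM) in 5 of 6, and each other neighbouring pair of the 10 members kept its order in 6 of 6.

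Igfbp2 (Entrez gene 16008, chromosome 1, 72824480 to 72852474) and Igfbp5 (chromosome 1, 72858065 to 72874865) are neighbours that point towards each other, with 5.59 kb between them, and Igfbp2 was called while Igfbp5 was not. The difference between their responses was not tested. The 250 bases before the RefSeq start of each are printed here, with those of Igfbp3, the only other member whose groups did not overlap. The build of the sequences is GRCm38.p6, each is given 5′ to 3′ on the strand of its gene, and capitals mark the GC box GGGCGG, a site of SP1-type factors. The windows are chr1:72824230-72824479 (plus strand) for Igfbp2, chr1:72874866-72875115 (minus strand) for Igfbp5 and chr11:7213924-7214173 (minus strand) for Igfbp3. Those of Igfbp2 and Igfbp5 adjoin the gene span, while that of Igfbp3 belongs to a listed start inside its span (chromosome 11, 7206086 to 7215498).
Igfbp2: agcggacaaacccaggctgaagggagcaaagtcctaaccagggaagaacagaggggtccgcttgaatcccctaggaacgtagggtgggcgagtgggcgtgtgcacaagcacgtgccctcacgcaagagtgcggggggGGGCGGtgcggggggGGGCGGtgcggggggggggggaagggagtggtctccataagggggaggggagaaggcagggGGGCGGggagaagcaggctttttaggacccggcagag
Igfbp5: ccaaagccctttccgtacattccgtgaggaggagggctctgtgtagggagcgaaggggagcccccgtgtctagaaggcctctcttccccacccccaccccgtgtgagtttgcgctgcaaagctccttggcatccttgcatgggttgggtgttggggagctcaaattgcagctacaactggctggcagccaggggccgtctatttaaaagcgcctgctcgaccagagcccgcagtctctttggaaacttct
Igfbp3: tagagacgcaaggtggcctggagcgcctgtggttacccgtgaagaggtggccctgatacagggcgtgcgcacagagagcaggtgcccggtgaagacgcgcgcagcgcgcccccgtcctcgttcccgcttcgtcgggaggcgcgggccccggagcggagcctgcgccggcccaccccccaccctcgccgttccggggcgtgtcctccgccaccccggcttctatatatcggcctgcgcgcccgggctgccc

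The Igfbp2 window held 3 GC boxes, at 113, 98 and 37 bases before the start (counted from the first base of the match), and the Igfbp5 and Igfbp3 windows held 0. GC boxes did not set Igfbp2 apart from members that were not called, since the windows of Igfbp7 held 4, of Igf2r 3, of Igf1r 2 and of Igf2 from 0 to 2. On either strand, GGGCGG was present in 32.7% of the 32851 promoter windows of the same length in the RefSeq table, TATAAA in 12.4% and the STAT motif TTCNNNGAA in 7.02%. The last was searched because the STAT5 genes are treated below, and none of the 14 windows of the 10 members held it. With so few windows, so short, and a motif this rare in all windows, that absence cannot decide whether STAT5 acts on these genes. The G and C share was 67.2% in the Igfbp2 window, 58.8% in Igfbp5 and 73.2% in Igfbp3, against a median of 66.6% over the members' windows and 52.4% over all windows. Igfbp2 has a second listed start, whose window held 0 GC boxes. The expression table does not separate the starts.

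Igfbp2 measured 1.16, 1.28 and 1.52 FPKM in the WT libraries against 0.24, 0.38 and 0.36 FPKM in the KO libraries, in replicate order. Every KO library was below every WT library, and the gap between the groups was wider than the range within either. The means were 1.32 ± 0.183 FPKM in WT and 0.327 ± 0.0757 FPKM in KO (SD, n = 3 each). The log2 fold change on the log2(FPKM + 1) scale was −0.80 (SE 0.14, limma adjusted p 0.0337). At such low values a pseudocount of 1 understates the change, and with a pseudocount of 0.1 it was −1.74 (limma, adjusted p 0.0382). An exact permutation test on the FPKM (two-sided) gave 0.1, the smallest p that 3 libraries against 3 allow. Any groups of this size without overlap give that value, so it adds nothing to the lack of overlap.

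These values rest on few reads. With the estimated depth and the 1307 nt transcript, Igfbp2 corresponds to about 21.5, 24.4 and 28.2 reads in WT and 4.2, 7.1 and 6.8 reads in KO, and with its 991 nt transcript to 16.1 to 21.1 and 3.1 to 5.3 reads. The KO mean alone is below 0.5 FPKM, so Igfbp2 entered the test through its WT values. The call was lost when any library other than WT replicate 1 was left out (limma, adjusted p 0.0713 to 0.124), and the direction held each time. Beside it, summed markers of muscle precursors (Pax7, Myf5, Myod1 and Myog) were at 4.26 to 5.82 FPKM in WT and 0.41 to 3.54 FPKM in KO. Myog held most of that sum in every library. Pax7 and Myf5 were below the filter, which Myod1 passed only through its WT values. Neither Myod1 (limma adjusted p 0.124) nor Myog (0.324) was called. Summed markers of pericytes and smooth muscle (6 genes) were at 112 to 142 FPKM in WT and 92.7 to 105.4 FPKM in KO. Of these 6 genes, only Cspg4 passed the threshold (35.8% of the WT mean, limma adjusted p 0.0435). Rgs5 and Acta2 were also lower in KO without overlap, while Pdgfrb, Myh11 and Tagln overlapped. Pax7 was at 0.1 to 0.16 FPKM in WT and 0 to 0.25 FPKM in KO, with overlap. Myf5, Myod1 and Myog were lower in KO without overlap. Groups without overlap were found in 24.9% of all genes tested. Of the 8 fibroblast and preadipocyte markers, 6 had a positive and 2 a negative log2 fold change, Ly6a was called higher (200.1% of the WT mean, limma adjusted p 0.0332), and their sum was 1143 to 1501 FPKM in WT and 1235 to 2090 FPKM in KO. The brown adipocyte markers Elovl3 and Plin1 were called lower, as given above. The part of any of these cell types in the Igfbp2 result was not tested.

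Igfbp3, the main IGF carrier of blood and a product of endothelial and stromal cells, was the other member whose groups did not overlap. It measured 145.56, 166.61 and 140.09 FPKM in the WT libraries against 168.62, 198.2 and 196.94 FPKM in the KO libraries. The lowest KO library lay only just above the highest WT library. The means were 151 ± 14.0 FPKM and 188 ± 16.7 FPKM (SD, n = 3 each), with a log2 fold change of 0.32 and an interval of −0.0021 to 0.63 (limma, SE 0.14, adjusted p 0.263). That difference did not pass the threshold. The exact permutation test again gave 0.1, which restates the lack of overlap. Groups without overlap were found in 2 of 10 members and in 24.9% of all genes tested, with KO lower in 11.4% and higher in 13.6%. The gene next to it, Igfbp1, whose product is made mainly by liver, was listed at 0 in 4 of 6 libraries and at no more than 0.25 FPKM in the others.

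**Figure D3:**
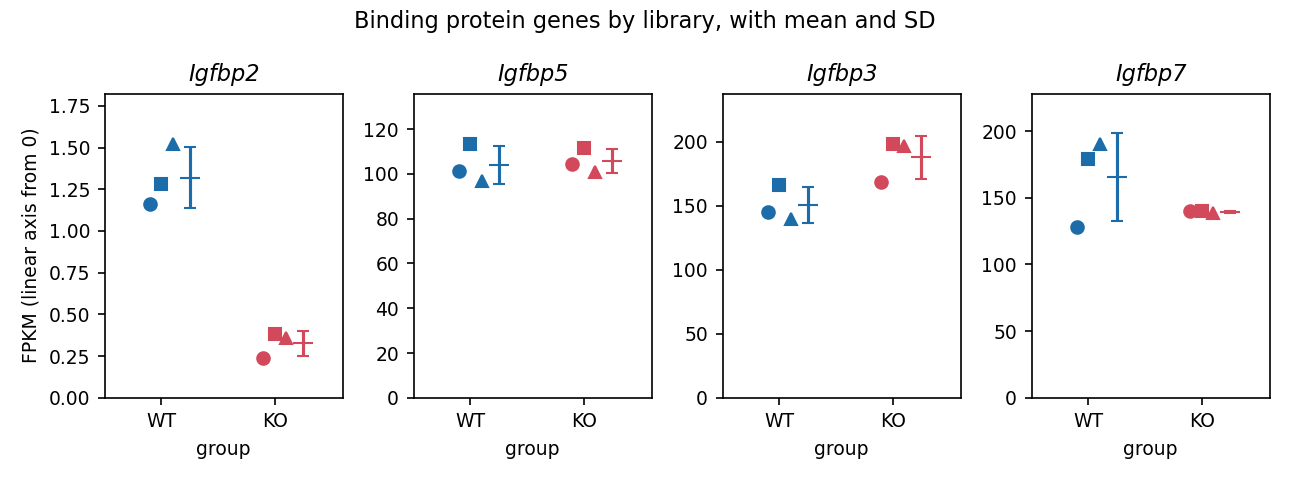
FPKM of 4 binding protein genes by library on linear axes from 0, with circles, squares and triangles for replicates 1, 2 and 3 and bars for the group mean and SD (n = 3). Igfbp2 separates by group near the bottom of the measured range, its neighbour Igfbp5 overlaps, Igfbp3 separates narrowly, and Igfbp7 is spread in WT and tight in KO.

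Igfbp7 binds IGFs weakly, is deposited around blood vessels, and carries Fstl2 among its synonyms in RefSeq. It measured 128.25, 178.96 and 190.15 FPKM in the WT libraries against 140.24, 139.95 and 138.8 FPKM in the KO libraries. The KO libraries lay within a very narrow band inside the WT range, with a coefficient of variation of 0.545% in KO and 19.9% in WT. The log2 fold change was −0.23 with an interval of −0.61 to 0.16 (limma, adjusted p 0.503). Summed endothelial markers (6 genes) were likewise lowest in replicate 1 of WT, at 447 FPKM there against 526 and 543 FPKM in the other WT libraries, with 455 to 518 FPKM in KO. The share of the binding protein sum held by Igfbp3 was 27.4% to 32.8% in WT and 34.5% to 37.5% in KO, while that of Igfbp7 was 28.9% to 37.2% in WT and 26.0% to 28.7% in KO. As parts of 1 sum, these shares depend on each other, and they were not tested. Neither Igfbp3 nor Igfbp7 was called by its own level.

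Igfbp5, the most conserved binding protein and one that sticks to extracellular matrix, had the smallest fitted difference of the 10 members. It measured 101.43, 113.24 and 96.69 FPKM in the WT libraries against 104.34, 111.44 and 101.01 FPKM in the KO libraries. Its log2 fold change was 0.03, and the interval of −0.27 to 0.33 limits the KO level to 0.83 to 1.25 times the WT level (limma, adjusted p 0.939). Igfbp4, an inhibitor of IGF action that is cut by the protease encoded by Pappa, measured 63.47, 79.81 and 77.85 FPKM in the WT libraries against 70.52, 79.42 and 82.51 FPKM in the KO libraries. Replicate 1 was lowest in either group, and the groups overlapped (limma, log2 fold change 0.08, interval −0.26 to 0.41, adjusted p 0.828).

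Igfbp6, which prefers IGF2 over IGF1, measured 3.4, 7.22 and 4.96 FPKM in the WT libraries against 5.18, 9.37 and 5.0 FPKM in the KO libraries. It varied most of the 10 members within the groups, with coefficients of variation of 37.0% in WT and 37.9% in KO, and replicate 2 was the highest library of each. The log2 fold change was 0.28 with an interval of −0.35 to 0.91 (limma, adjusted p 0.628), the widest of the members, so on the FPKM + 1 scale a KO level up to 1.88 times WT lies within it. Summed fibroblast and preadipocyte markers (8 genes) were also highest in replicate 2, at 1501 FPKM in WT and 2090 FPKM in KO against 1143 to 1454 FPKM in the other libraries. Col3a1 and Col1a1 held most of that sum in every library. Pdgfra was highest in replicate 1 of WT and replicate 3 of KO, and Ly6a in replicate 2 of WT and replicate 3 of KO. The remaining markers were each highest in replicate 2 of both groups. Their part in the spread of Igfbp6 was not tested.

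Around these 10 genes, 34 further genes of the IGF system were read from the same fit, of which 29 passed the filter on low values. One passed the threshold lower in KO (Stat5a) and 1 higher (Socs2), against 2.21% of all genes tested. There were 13 genes with a negative and 16 with a positive log2 fold change, with a median of 0.01. Of the 29, 8 had an unadjusted p under 0.05 (limma), against 19.2% of all genes tested. Groups did not overlap in 5 with KO lower and in 2 with KO higher, against 11.4% and 13.6% of all genes tested. Of the carriers, proteases and inhibitors, 5 of 9 were tested and 0 passed, and 2 of the 5 had an unadjusted p under 0.05. Igfals, the acid-labile subunit that holds circulating IGF complexes together, measured 0.5, 1.79 and 1.71 FPKM in the WT libraries against 0.39, 0.55 and 0.13 FPKM in the KO libraries (limma, log2 fold change −0.74, adjusted p 0.162). The lowest WT library lay within the KO range. The KO mean of Igfals was below 0.5 FPKM, so Igfals entered the test through its WT values. Adamts4, a matrix protease, measured 2.32, 3.74 and 4.17 FPKM in the WT libraries against 1.99, 1.99 and 2.27 FPKM in the KO libraries (limma, log2 fold change −0.49, adjusted p 0.203). Those 2 genes were named after their values were seen.

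Of the receptors and adaptors, 8 of 9 were tested and 0 passed in limma. Of these 8, 1 had an unadjusted p under 0.05 (Irs4, limma adjusted p 0.248), against 19.2% of all genes tested. Insr, the insulin receptor, which can pair with the IGF1 receptor, measured 21.1, 19.14 and 16.39 FPKM in the WT libraries against 27.6, 17.58 and 32.25 FPKM in the KO libraries. KO replicate 2 fell within the WT range (limma, log2 fold change 0.40, adjusted p 0.365). Of the RNA binding and imprinted partners, 10 of 10 were tested and 0 passed in limma, with 1 at an unadjusted p under 0.05. That gene was Mest, a paternally expressed imprinted gene linked to fat cell size, at 224.35, 249.89 and 262.7 FPKM in WT and 142.69, 198.56 and 142.13 FPKM in KO. Every KO library was below every WT library (log2 fold change −0.62, SE 0.17, limma adjusted p 0.0921), as was found in 11.4% of all genes tested. Dlk1, the imprinted preadipocyte factor, lay at 0.02 (limma, adjusted p 0.961), and the 3 Igf2bp genes, whose proteins bind Igf2 RNA, lay between −0.18 and 0.18.

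The growth hormone input held both of the further genes that passed. Of its 6 genes, 4 had an unadjusted p under 0.05 (limma), against 19.2% of all genes tested. Growth hormone acts through its receptor Ghr, the kinase JAK2 and the transcription factors STAT5A and STAT5B, which switch on Igf1 in many tissues and also Socs2 and Cish, 2 feedback inhibitors. Ghr (log2 fold change 0.15, limma, adjusted p 0.683) and Jak2 (0.13, adjusted p 0.765) did not pass. Stat5a fell from 12.8, 17.95 and 15.17 FPKM in the WT libraries to 8.99, 6.02 and 3.94 FPKM in the KO libraries (log2 fold change −1.20, SE 0.25, limma adjusted p 0.0475). Stat5b, a close paralog whose reads the counting may not fully separate from those of Stat5a, measured 10.46, 12.13 and 10.46 FPKM in the WT libraries against 7.73, 6.71 and 6.09 FPKM in the KO libraries (log2 fold change −0.62, SE 0.15, limma adjusted p 0.0674). Neither gene's groups overlapped, which with KO lower was found in 11.4% of all genes tested, and Stat5b did not pass.

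Socs2 rose from 17.4, 13.85 and 19.67 FPKM in the WT libraries to 44.41, 32.84 and 56.16 FPKM in the KO libraries (log2 fold change 1.32, SE 0.21, limma adjusted p 0.0266). The KO mean was 262% of the WT mean, and the highest WT library was well below the lowest KO library. Cish measured 29.95, 15.26 and 33.03 FPKM in the WT libraries against 20.56, 11.42 and 5.4 FPKM in the KO libraries, with overlap between the groups (limma, log2 fold change −1.11, adjusted p 0.204). The fitted differences of these feedback genes had opposite signs, and the difference between them was not tested. Without the filter on low values neither Socs2 (limma adjusted p 0.0803) nor Stat5a (0.122) passed, and with the replicate number as a block Stat5a did not (0.0632). Leaving out 1 library at a time gave adjusted p of 0.0314 to 0.119 for Socs2 and 0.0326 to 0.192 for Stat5a (limma): Socs2 stayed past the threshold in 2 of the 6 fits and Stat5a in 1.

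**Figure D4:**
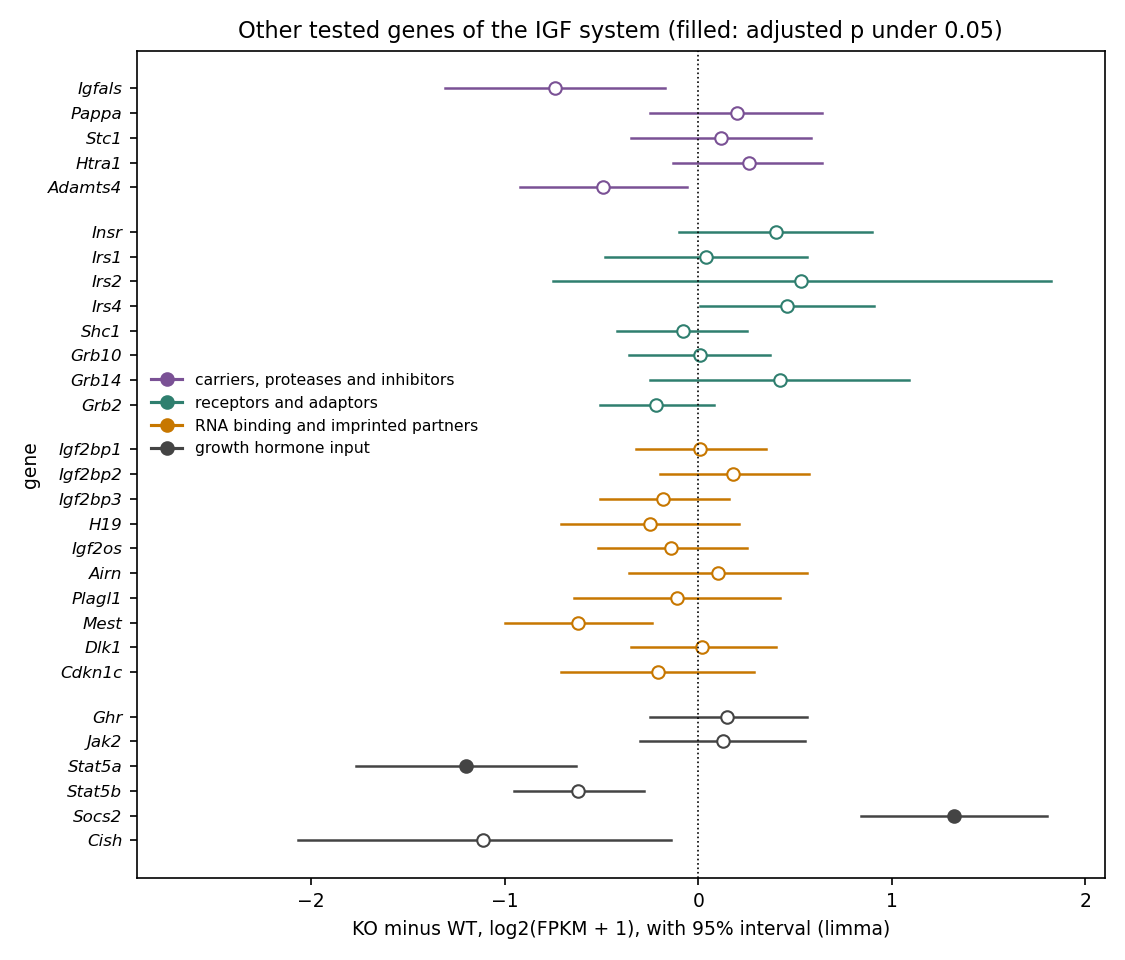
Difference between KO and WT on the log2(FPKM + 1) scale, with unadjusted 95% intervals from limma, for the 29 tested genes of the 34 around the members, coloured by role. Filled points, Stat5a at −1.20 and Socs2 at 1.32, passed an adjusted p of 0.05.

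Over the 6 libraries, the genes whose pattern was most like that of Igf2 were Gas6 (Pearson r 0.985), Trmt2a (0.979) and Ddost (0.976), among 8373 other genes averaging at least 5 FPKM. Gas6, which encodes a ligand of TAM receptor kinases, measured 7.24, 9.19 and 9.24 FPKM in the WT libraries against 5.62, 10.54 and 6.34 FPKM in the KO libraries, highest in KO replicate 2 and lowest in KO replicate 1, the libraries that were also highest and lowest for Igf2. For Igf1 the nearest were Arl6ip4 (0.982), L3hypdh (0.981) and Pla2g7 (0.975). These correlations of log2(FPKM + 1) over 6 points are descriptive only: 53 genes for Igf2 and 39 for Igf1 exceeded 0.9. The named genes were picked as the highest of 8373, and with so few points some high values arise without any relation. How many would exceed 0.9 in that case was not worked out.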

How the data were processed

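Total RNA of 6 libraries was sequenced, and the deposited table holds 1 FPKM value per gene and library, per the file headers, rounded by the authors to 2 decimals. The submitters' processing notes name HISAT2 2.0.4, Bowtie2 2.2.5, DESeq2 and the build mm10, without roles. Strand handling and filters are not given in the sources used here. Groups and replicate numbers came from the titles.

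FPKM are not counts, so log2(FPKM + 1) was fitted with limma 3.58.1 in R 4.3.3 (trended eBayes, no covariates) for the 13331 genes averaging at least 0.5 FPKM, and p-values were adjusted over all of them by the Benjamini-Hochberg method. In 1 simulation with 200 genes changed by 1.5 (log2), the fit called 84% of them, with 9 false calls. That change is larger than the fitted difference of any member in the main fit, and smaller changes were not simulated.

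Depth was estimated from low values (0.1 to 1.0 FPKM) of single-transcript genes of 500 to 1300 nt, with 49 nt taken off the length. At the best depth 71.3% to 76.1% of values lay within 0.2 of a whole read, and no count test was run. That tolerance admits many values even at a wrong depth, and the best of many trial depths was kept. The depths and read numbers are therefore approximate. Transcript lengths came from GENCODE vM21, and coordinates and promoters from RefSeq GRCm38.p6 (the assembly of mm10), which matched 10 of 10 members.

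The members, the lists of other genes and the markers were chosen with earlier results of these data known. Genes named outside the members were those past the threshold and the 4 with the smallest p at a mean of at least 1 FPKM. Others are examples of their list, chosen after their values were seen. Alternatives were other pseudocounts, filters, scalings, eBayes settings, the replicate number as a block and leaving out each library.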

Additional observations from a re-analysis of the deposited data

How the results depend on the processing

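Of the 10 members, 1 (Igfbp2) was called, and 0 with the replicate block (Igfbp2, limma, adjusted p 0.0569), 0 with a filter at a mean of 5 FPKM, which removes Igfbp2 and Igf1r by construction, and 0 to 1 when 1 library was left out. Igfbp2 stayed below 0 in all 15 alternatives that could test it (−2.0 to −0.74) and past the threshold in 9, with adjusted p of 0.0212 to 0.124 (limma). Without the filter its adjusted p was 0.0499, while Fstl1 (0.0606), Socs2 (0.0803) and Stat5a (0.122) lost their calls. Stat5a also lost its call with the replicate block (0.0632). The other 9 members passed in none of theirs. Leaving out 1 library reversed the sign of 4 members that were not called: Igf1 ran from −0.16 to 0.04, Igf2r from −0.01 to 0.14, Igfbp4 from −0.03 to 0.14 and Igfbp5 from −0.02 to 0.09. Their cause was not tested. No scaling reversed a member or shifted the median over all genes by more than 0.1.

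Over all genes 295 were called (134 lower, 161 higher), 35 without the filter on low values (19241 genes tested, 30 shared with the 295), 167 with the replicate block (135 shared) and 31 to 370 without 1 library (31 without WT replicate 3, 370 without WT replicate 1). The cause of these shifts in number was not tested. The titles number the libraries of each group 1 to 3. Deviations from the group means in libraries with the same number correlated at 0.068, 0.043 and 0.043. These correlations were low, although 6 of 6 libraries correlated best with their own number. Whether libraries of the same number were pairs is not stated, so the number served as a block only in an alternative fit. Depth limits Igfbp2 most, with at most 28 estimated reads in any library.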

Other observations

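In the authors' deposited table the KEGG column names 5 of the 6 binding protein genes (Igfbp2, Igfbp3, Igfbp4, Igfbp5 and Igfbp6) as IGF binding protein 3, and Igfbp7 as the serine peptidase HtrA1. A pathway count made from that column would merge the called gene Igfbp2 with Igfbp3, whose fitted difference has the other sign. Htra1 is listed separately and measured 9.95, 14.55 and 14.28 FPKM in the WT libraries against 15.43, 15.39 and 15.42 FPKM in the KO libraries (limma, log2 fold change 0.26, adjusted p 0.445). Like Igfbp7, Htra1 had a narrow KO range beside a wide WT range, and both genes were lowest in WT replicate 1; the difference in spread was not tested.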
